A study of Mus musculus with 4 samples.

Results

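The AMPA and kainate receptor subunits are 9 genes, Gria1 to Gria4 and Grik1 to Grik5, taken by symbol from the 54348 genes of the deposited table. Each symbol had 1 row. A gene was tested when it reached at least 1 TPM (a transcript abundance per transcript length and library total) in at least 2 of the 4 libraries. On that filter 8 of the 9 subunits were tested, and Grik4 was not. Gria1 passed the filter through the control libraries alone, so it had to be lower with the fusion to be tested at all, and its call is a description that supports nothing further. RNA came from living cells with tdTomato signal, sorted out of forebrains of mouse pups at postnatal day 4. Control pups carried PdgfraCreER, a Cre recombinase that tamoxifen activates and that follows expression of Pdgfra, and AI14, a reporter that makes tdTomato after recombination (genotype PdgfraCreER;AI14, 2 libraries). Fusion pups carried the same alleles and MN1:BEND2, a fusion gene of the brain tumour astroblastoma (genotype PdgfraCreER;MN1:BEND2;AI14, 2 libraries). All pups, controls included, received tamoxifen into the abdomen on postnatal days 0 and 1. The sources used here do not say how the fusion gene is switched on. The labels leave unsaid whether replicate libraries derive from separate pups, so the p-values measure the spread between libraries, which may be technical.

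Glutamate opens ion channels that are built from several subunits. AMPA receptors, built from the Gria products, carry the fast excitatory current of the brain. Kainate receptors are built from the Grik products, of which Grik1, Grik2 and Grik3 can form a channel by themselves while Grik4 and Grik5 need one of those partners. Oligodendrocyte precursor cells, the main cells that express Pdgfra in the brain parenchyma, carry AMPA receptors and receive synapses from neurons. In the Gria2 subunit an enzyme, the product of Adarb1, edits 1 adenosine of the messenger RNA in the codon of the glutamine/arginine site, and AMPA receptors with the edited subunit let little calcium through. The messenger RNAs of Grik1 and Grik2 can be edited at the same site.

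That codon is shown for the AMPA subunits and the edited kainate subunits, because it is the feature that separates Gria2 from the other AMPA subunits once the RNA is edited. The sequences are coding strand, 5′ to 3′, from the principal GENCODE M21 transcripts (GRCm38), whose exons are numbered, with the codon of the site in capitals and 15 bases on each side.
Gria2 (chr3:80706911-80706913, minus strand, exon 11 of 16): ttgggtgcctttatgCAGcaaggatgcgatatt
Gria1 (chr11:57243094-57243096, plus strand, exon 11 of 16): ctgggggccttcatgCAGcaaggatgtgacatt
Gria3 (chrX:41610265-41610267, plus strand, exon 11 of 16): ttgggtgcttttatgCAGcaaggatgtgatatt
Gria4 (chr9:4464137-4464139, minus strand, exon 12 of 17): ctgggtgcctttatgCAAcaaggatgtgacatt
Grik1 (chr16:87940542-87940544, minus strand, exon 12 of 17): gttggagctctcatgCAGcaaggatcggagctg
Grik2 (chr10:49244329-49244331, minus strand, exon 13 of 17): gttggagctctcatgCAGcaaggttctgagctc
Positions and exons are those of the codon, and the bases printed for Grik1 and Grik2 cross an exon junction. The codon was CAG in 8 of the 9 subunits and CAA in Gria4, and both codons stand for glutamine. Over these 33 bases Gria2 matched Gria3 at 31, Gria4 at 29 and Gria1 at 28, and matched Grik1 at 22 and Grik2 at 21. The deposited values are sums for whole genes, so neither editing nor the alternative flip and flop exons of the Gria genes could be read from them.

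Control and fusion libraries also differed in measures other than these genes. Mitochondrially encoded genes held 7.30% to 10.1% of TPM in controls and 26.2% to 48.7% with the fusion, and genes at 1 TPM or more numbered 12772 to 13219 and 9050 to 10017. The Y-linked gene Eif2s3y had 121 and 122 TPM in controls and a listed 0 in each fusion library, so sex and genotype cannot be told apart, and Gria3 is X-linked. The marker counts that follow are to be read beside 51.3% of all tested genes called lower and 4.95% called higher. Of 8 tested precursor markers 5 fell and none rose, and the list summed to 1261 and 1616 TPM in controls and to 453 and 578 TPM with the fusion. Pdgfra itself had 337 and 429 TPM in controls and 123 and 192 TPM with the fusion. Of 6 tested oligodendrocyte markers all 6 fell, from sums of 1742 and 2326 TPM to 174 and 146 TPM, and Mog read 0 in each fusion library. Neuron markers summed to 219 and 204 TPM in controls and 52.7 and 37.2 TPM with the fusion, with 4 of 8 tested lower. Most of each control sum was Snap25, at 135 and 132 TPM, which had 24.7 and 8.79 TPM with the fusion. The groups overlapped for Stmn2, Gad1 and Nefl. The neuronal nuclear marker Rbfox3 reached at most 0.665 TPM in a library. Astrocyte markers summed to 112 and 133 TPM and to 21.8 and 34.8 TPM, with 2 of 5 tested lower. Aldoc alone had 100 and 114 TPM and then 10.6 and 15.1 TPM, and the groups overlapped for Gja1. Microglia markers summed to 37.5 and 16.3 TPM and to 136 and 182 TPM, with 3 of 6 tested higher and 1 lower, P2ry12, which read 0 in each fusion library. Tyrobp alone had 16.6 and 7.66 TPM and then 105 and 116 TPM. C1qa had 6.53 and 2.15 TPM and then 1.08 and 0.851 TPM, and was not called lower. Fibroblast and mural markers summed to 38.9 and 106 TPM and to 93.5 and 213 TPM, with 1 of 5 tested higher. Endothelial markers summed to 1.19 and 1.40 TPM and to 1.83 and 2.33 TPM, with the 1 tested marker, Cdh5, higher. With libraries scaled to a median ratio of 1, lower and higher calls numbered 0 and 1 for precursor and 4 and 0 for oligodendrocyte markers. They numbered 2 and 1 for neuron, 1 and 2 for astrocyte and 0 and 3 for microglia markers. Fibroblast and mural markers had 0 and 3, and endothelial markers 0 and 1. These stand beside 18.6% of all tested genes lower and 14.3% higher on that scale. Cdh5 and Gad2 reached 1 TPM in fusion libraries alone, and Mog, P2ry12 and Syt1 in control libraries alone, so their directions were set by the filter. The part of any of these differences in the results below was not tested.

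In the control libraries Gria2 was the most abundant of the 9 subunits, at 85.1 and 114 TPM. Gria3 followed at 40.5 and 48.9 TPM. Grik1, the leading kainate subunit, had 13.5 and 21.8 TPM and Gria4 had 13.7 and 20.0 TPM, so these neighbours overlapped. Grik2 had 5.83 and 7.29 TPM. Gria1, the subunit best known from synapses of forebrain neurons, had 3.00 and 5.12 TPM and overlapped with Grik3 at 2.96 and 4.03 TPM. The partners Grik5 and Grik4 were lowest, at 2.07 and 2.34 TPM and at 1.17 and 0.813 TPM. With the fusion, Gria2 still ranked first, above Gria3 in both, and Gria3 overlapped with Gria4, Gria4 with Grik1, and Grik1 with Grik2 and Grik3. Grik5 overlapped with Grik2 and Grik3, and Gria1 with Grik4 at the bottom of the order. The AMPA subunits summed to 142 and 188 TPM in controls and to 28.7 and 44.8 TPM with the fusion. The kainate subunits summed to 25.6 and 36.2 TPM and to 8.22 and 4.36 TPM.

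**Figure D1:**
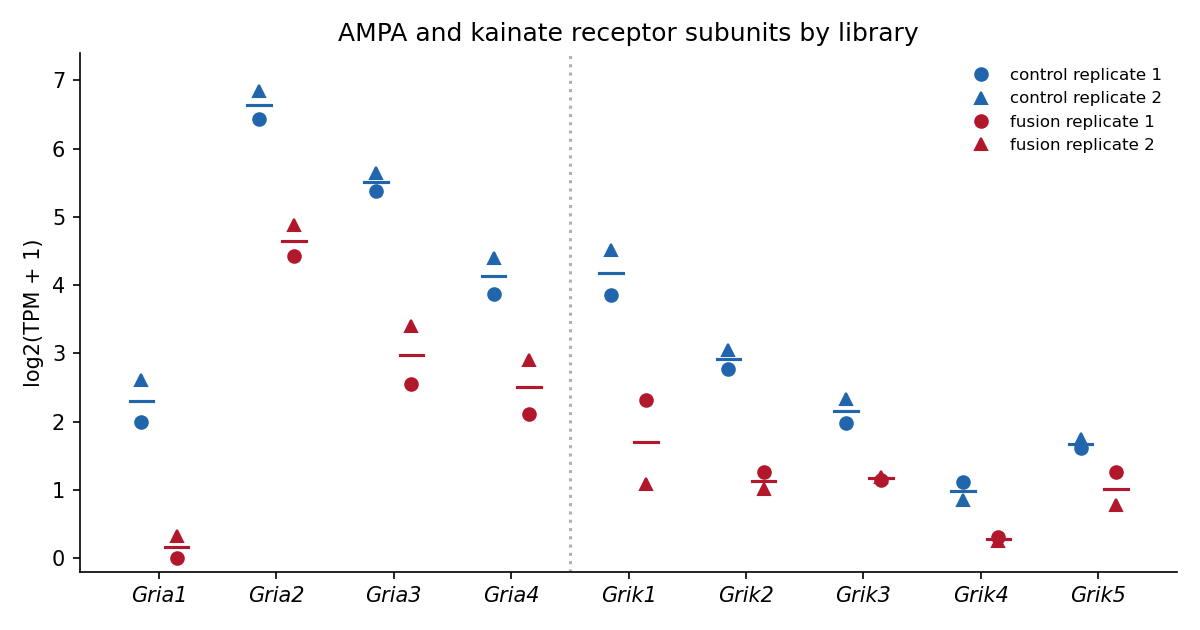
Level of each subunit, log2(TPM + 1), in the control (blue) and fusion (red) libraries, with circles for replicate 1, triangles for replicate 2 and a line at the mean of the 2 values. For each of the 9 subunits both fusion libraries lie below both control libraries, which held for 71.1% of all tested genes. Gria2 is highest in every library.

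All 4 AMPA subunits fell with the fusion, beside 51.3% of all tested genes called lower. Gria1 was tested through its control values alone, and 92% of genes tested in that way were lower. The other 3 stand beside 43.4% of genes that reached 1 TPM in each group. Of these 3, 0 were lower with libraries scaled to a median ratio of 1, beside 11.2%. Changes are given on the log2(TPM + 1) scale, which understates those of low genes, with limma's standard error (SE) and Benjamini-Hochberg adjusted p over 12871 tested genes. In these bulk samples fewer cells of a type and less RNA per cell cannot be told apart.

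Gria2 (ENSMUSG00000033981.14, chromosome 3, 80681450 to 80802835) went from 85.1 and 114 TPM to 20.5 and 28.5 TPM. Its mean was 99.4 ± 20.2 TPM in controls and 24.5 ± 5.65 TPM with the fusion (SD, n = 2), which is 4.06-fold lower, and its log2 change was -1.98 ± 0.38 (SE, adjusted p = 0.00999, limma). Gria3 (ENSMUSG00000001986.16, chromosome X, 41400854 to 41678601) went from 40.5 and 48.9 TPM to 4.89 and 9.59 TPM, a log2 change of -2.53 ± 0.45 (SE, adjusted p = 0.00840, limma). Its mean was 6.17-fold lower, against 44.7 ± 5.88 TPM in controls (SD, n = 2). The groups did not overlap for either gene, beside 71.1% of tested genes with both fusion libraries below both control libraries. On TPM as deposited, fusion replicate 1 was the lower fusion library for both genes.

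Gria4 (ENSMUSG00000025892.16, chromosome 9, 4417896 to 4796234), a subunit of fast AMPA channels, went from 13.7 and 20.0 TPM to 3.33 and 6.49 TPM, a log2 change of -1.63 ± 0.49 (SE, adjusted p = 0.0377, limma). Gria4 did not pass without fusion replicate 1, with a change of -1.23 (adjusted p = 0.0539, limma). Gria1 (ENSMUSG00000020524.16, chromosome 11, 57011387 to 57330244) had 3.00 and 5.12 TPM in controls, was listed at 0 in fusion replicate 1 and had 0.260 TPM in fusion replicate 2, a log2 change of -2.14 ± 0.36 (SE, adjusted p = 0.00722, limma). Gria1 was the lowest AMPA subunit in every library, while Gria2 did not go below 20.5 TPM. The Gria genes are related in sequence, and Gria2, Gria3, Gria4 and Grik4 each share exon bases with a small predicted RNA gene on the same strand, so how such reads were divided is uncertain.

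Of the 4 tested kainate subunits 2 fell, Grik1 and Grik2, and none rose. That count of 2 in 4 is near the 51.3% of all tested genes called lower and is no result about the family. Grik1 (ENSMUSG00000022935.16, chromosome 16, 87895900 to 88290265) went from 13.5 and 21.8 TPM to 3.98 and 1.13 TPM, a log2 change of -2.48 ± 0.59 (SE, adjusted p = 0.0188, limma). Grik2 (ENSMUSG00000056073.16, chromosome 10, 49094833 to 49788766) went from 5.83 and 7.29 TPM to 1.40 and 1.02 TPM, a log2 change of -1.77 ± 0.40 (SE, adjusted p = 0.0165, limma). On TPM as deposited, and in contrast to the AMPA subunits, Grik1 and Grik2 were lower in fusion replicate 2 than in fusion replicate 1. The factors of median ratio scaling were 0.458 for fusion replicate 1 and 0.691 for fusion replicate 2, so the order of the replicates can depend on the scale.

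Grik3 (ENSMUSG00000001985.9, chromosome 4, 125490700 to 125714173) had 2.96 and 4.03 TPM in controls and 1.21 and 1.29 TPM with the fusion, and its log2 change of -0.99 ± 0.36 did not pass (SE, adjusted p = 0.0655, limma). Grik5 (ENSMUSG00000003378.9, chromosome 7, 25009849 to 25072346), an obligate partner subunit, had 2.07 and 2.34 TPM and 1.39 and 0.723 TPM, with a log2 change of -0.66 ± 0.34 (SE, adjusted p = 0.148, limma). Grik4 (ENSMUSG00000032017.14, chromosome 9, 42518135 to 42944493), the other partner subunit, had 1.17 and 0.813 TPM and 0.238 and 0.195 TPM and was not tested. The groups did not overlap for these 3 genes, beside 71.1% of tested genes with both fusion libraries below both control libraries. After median ratio scaling the groups overlapped for all 3, and every value as deposited was near or under 4 TPM.

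The fall of these genes has to be read against a table in which most genes were lower. The 6 of 8 tested subunits that fell stand beside 51.3% of all tested genes called lower, and the 0 that rose beside 4.95% called higher. Without Gria1, 5 of the 7 subunits that reached 1 TPM in each group fell, beside 43.4% of such genes. Of the 2388 genes that reached 1 TPM in control libraries alone, as Gria1 did, 92% were called lower. No subunit had a higher estimate at an unadjusted p under 0.05 either. Both fusion libraries lay below both control libraries for all 9 subunits, which held for 71.1% of tested genes. The median log2 change was -1.88 over the 8 tested subunits and -1.41 over all genes. Relative to that overall median, Gria3 lay at -1.12, Grik1 at -1.07, Gria1 at -0.73, Gria2 at -0.58, Grik2 at -0.37, Gria4 at -0.22, Grik3 at 0.42 and Grik5 at 0.75.

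With libraries scaled to a median ratio of 1, which moved the median of all genes from -1.41 to -0.15, 1 of the 8 tested subunits was lower and none was higher. This stands beside 18.6% of tested genes lower and 14.3% higher on the same scale. The subunit that remained was Gria1, with a log2 change of -1.38 ± 0.31 (SE, adjusted p = 0.0310, limma). Gria1 was tested through its control values alone, and 52.6% of genes tested in that way were lower after scaling. None of the 7 other subunits passed, beside 11.2% lower among genes that reached 1 TPM in both groups. Gria3 had -0.87 ± 0.33 (adjusted p = 0.105) and Grik1 had -0.97 ± 0.74 (adjusted p = 0.364). Gria2 had -0.25 ± 0.26 (adjusted p = 0.518) and Gria4 had -0.05 ± 0.39 (adjusted p = 0.931), and the estimates of Grik3 and Grik5 turned to 0.21 and 0.42. On this scale the groups did not overlap for Gria1, Gria2, Gria3 and Grik2, each lower with the fusion, which is 4 of 8 tested subunits beside 38.8% of tested genes. The calls on TPM as deposited also needed both control libraries. A fit with a single control library assumes that this library varies like the fusion pair. Without control replicate 1 no subunit passed and 4 were lower at an unadjusted p under 0.05, beside 8.59% of tested genes lower after adjustment, and without control replicate 2 these were 0, 2 and 7.96% (limma).

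**Figure D2:**
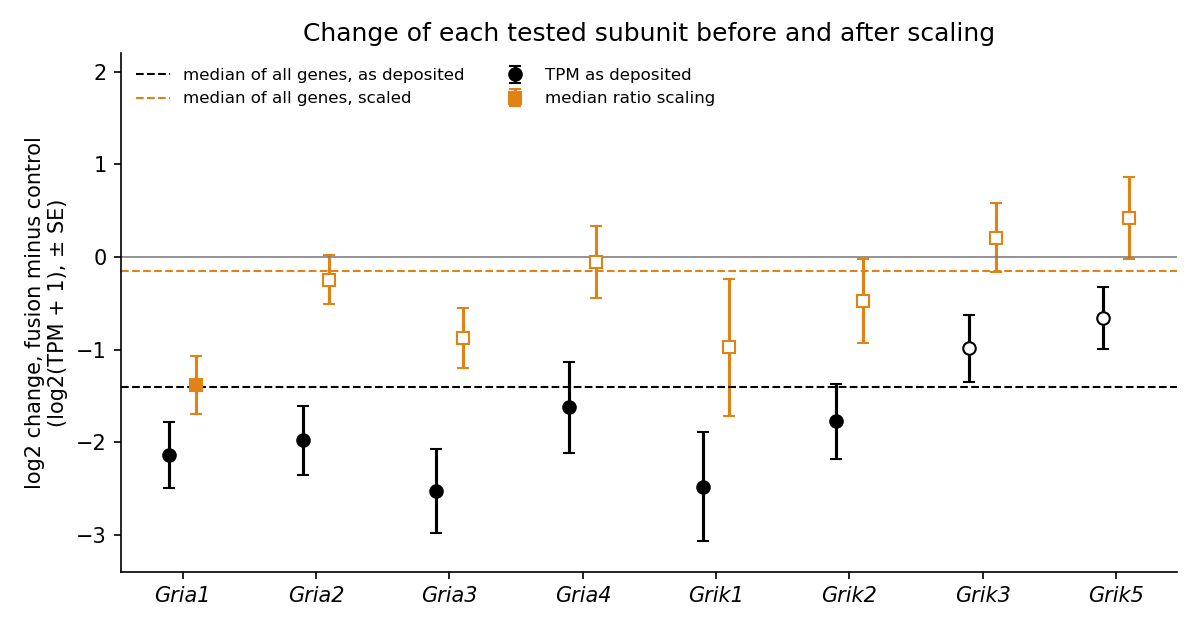
Log2 change of each tested subunit, fusion minus control, with SE, on TPM as deposited (black) and after median ratio scaling (orange), with filled symbols at an adjusted p under 0.05 and dashed lines at the medians of all genes, -1.41 and -0.15. Filled black symbols mark 6 of 8 subunits, beside 51.3% of all tested genes called lower. Gria1 alone, which entered the test through its control values, is filled after scaling, beside 18.6% of all tested genes.

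**Figure D3:**
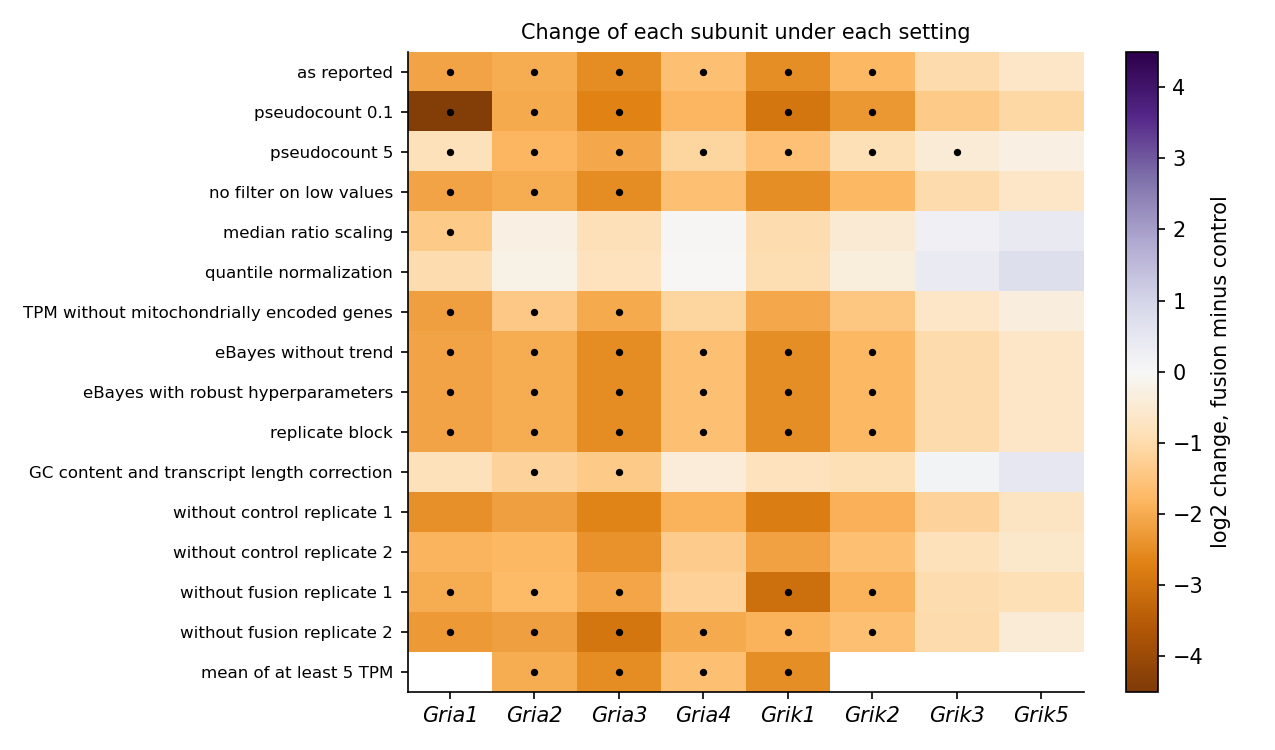
Log2 change of each tested subunit (colour) under each processing setting (rows), with a dot where the adjusted p was under 0.05 and white where the gene was not tested. Dots are missing from whole rows for quantile normalization and for the fits without control replicate 1 or 2, and Grik3 and Grik5 change sign with scaling, quantile normalization and the correction for GC content and length.

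The make-up of each receptor family does not move with the scaling of a library, so it was compared as a share of the family's summed TPM. With 2 libraries against 2, the exact permutation test over libraries (2-sided) cannot give a p below 0.333, so none of these shares can pass. Gria2 held 59.8% and 60.6% of AMPA subunit TPM in controls and 71.4% and 63.5% with the fusion (exact permutation p = 0.333). Gria3 held 28.5% and 26.0% and then 17.1% and 21.4% (exact permutation p = 0.333). Gria4 held 9.60% and 10.7% and then 11.6% and 14.5%, and Gria1 held 2.11% and 2.73% and then 0% and 0.580%. The groups did not overlap for any of the 4 shares, with Gria2 and Gria4 higher and Gria1 and Gria3 lower with the fusion. Such non-overlap is what an exact permutation p of 0.333 stands for. The 4 shares add up to the whole, so they are not separate observations. With the fusion the Gria1 share rests on a listed 0 and 0.260 TPM, and Gria1 entered through its control values alone. The ratio of Gria2 to the other 3 AMPA subunits was 1.49 and 1.54 in controls and 2.49 and 1.74 with the fusion.

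Among kainate subunits, Grik1 held 52.9% and 60.1% of the summed TPM in controls and 48.5% and 25.9% with the fusion. Grik5 held 8.12% and 6.46% and then 16.9% and 16.6%, and Grik3 held 11.6% and 11.1% and then 14.7% and 29.6% (exact permutation p = 0.333 for each of the 3). Grik2 held 22.8% and 20.1% and then 17.0% and 23.4%, and Grik4 held 4.58% and 2.24% and then 2.90% and 4.48%, so both overlapped. The kainate shares of the fusion libraries rest on summed levels of 8.22 and 4.36 TPM. The ratio of AMPA to kainate TPM was 5.57 and 5.18 in controls and 3.49 and 10.3 with the fusion, on either side of the controls. Per 100 TPM of precursor markers, a ratio chosen after the values were seen, AMPA subunits had 11.3 and 11.6 TPM in controls and 6.33 and 7.76 TPM with the fusion. Kainate subunits had 2.03 and 2.24 TPM and then 1.81 and 0.755 TPM on that ratio. The precursor markers did not fall alike. Their means were lower by 1.55-fold (Ptprz1) to 7.11-fold (Lhfpl3), with Pdgfra at 2.43-fold and Cspg4 at 6.87-fold. The ratio therefore depends on the markers summed, and it does not show a fall of the subunits beyond that of precursor cells.

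**Figure D4:**
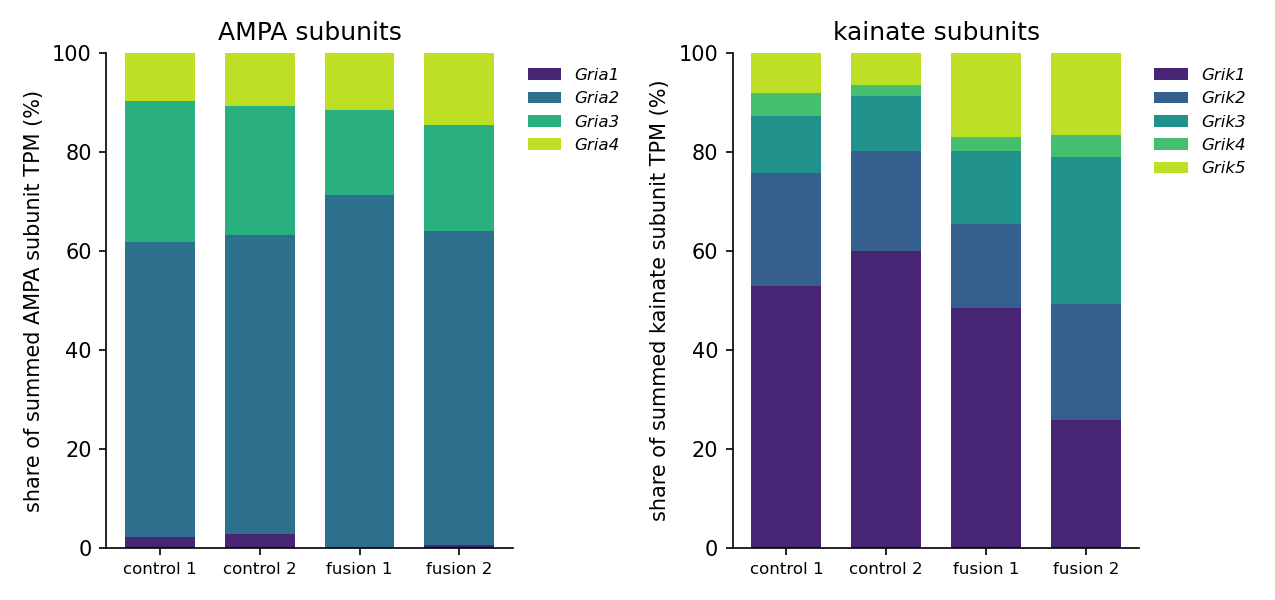
Share of each subunit in the summed TPM of the AMPA family (left) and of the kainate family (right), in percent, with 1 bar for each library. Gria2 takes 59.8% to 60.6% of AMPA TPM in control and 63.5% to 71.4% in fusion libraries, and Grik1 takes 25.9% of kainate TPM in fusion replicate 2.

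AMPA receptors reach the surface with auxiliary subunits that steer their trafficking and gating. Of 16 such genes 10 were tested, and 7 fell, 3 did not pass and none rose, with a median log2 change of -2.35 beside -1.41 for all genes. These counts stand beside 51.3% of all tested genes lower and 4.95% higher. Of the 10, 5 reached 1 TPM in control libraries alone, Cnih2 and Syndig1 among them, and all 5 were called lower. Of the other 5, 2 fell, beside 43.4% of genes that reached 1 TPM in both groups. Cacng4, a transmembrane AMPA receptor regulatory protein, went from 36.5 and 57.7 TPM to 5.68 and 10.2 TPM, a log2 change of -2.44 ± 0.47 (SE, adjusted p = 0.0102, limma). It was the most abundant of the list, and its levels overlapped with those of Gria3 in both groups. Cnih2, a cornichon protein that slows channel closing, went from 5.80 and 9.49 TPM to 0.729 and 0.225 TPM (log2 change -2.54, adjusted p = 0.00785, limma). Syndig1, for a membrane protein that binds AMPA receptors, had 6.17 and 10.7 TPM in controls and a listed 0 in each fusion library. Cpt1c, a protein of the endoplasmic reticulum that binds AMPA receptors, went from 9.14 and 18.6 TPM to 0.112 and 2.36 TPM. After scaling 4 of the 10 were lower, beside 18.6% of all tested genes. Syndig1 was among them (log2 change -2.39, adjusted p = 0.0123, limma), and all 4 were genes tested through their control values alone. Cacng4 did not pass (-0.78, adjusted p = 0.146).

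The auxiliary subunits of kainate receptors, Neto1 and Neto2, did not pass. Neto1 had 8.33 and 7.48 TPM in controls and 8.15 and 13.5 TPM with the fusion, and Neto2 had 11.1 and 15.7 TPM and 7.92 and 14.6 TPM, so the groups overlapped for both. Their log2 changes were 0.37 ± 0.44 and -0.27 ± 0.47 (SE, adjusted p = 0.500 and 0.651, limma). After scaling both were higher, with log2 changes of 1.94 (adjusted p = 0.0217, limma) and 1.35 (adjusted p = 0.0444, limma), beside 14.3% of all tested genes. Both also passed with quantile normalization (adjusted p = 0.0195 and 0.0439, limma). Neither passed with a correction for GC content and transcript length (adjusted p = 0.0532 and 0.247, limma). Without mitochondrially encoded genes neither passed (adjusted p = 0.113 and 0.621, limma). On TPM as deposited, Neto1 and Neto2 summed to 19.4 and 23.2 TPM in controls and to 16.1 and 28.2 TPM with the fusion. The 5 kainate subunits summed to 25.6 and 36.2 TPM in controls and to 8.22 and 4.36 TPM with the fusion.

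Scaffolding and trafficking genes went both ways. Of 13 genes 11 were tested, with 5 lower, 1 higher and 5 not past the threshold, and a median log2 change of -1.49. The 5 of 11 lower are near the 51.3% over all tested genes. The gene that rose was Dlg1, for the scaffold SAP97 that binds Gria1, with 12.04 and 15.7 TPM in controls and 51.5 and 37.9 TPM with the fusion. Its log2 change was 1.61 ± 0.39 on TPM as deposited (SE, adjusted p = 0.0190, limma) and 3.29 after scaling (adjusted p = 0.0117), though it did not pass without control replicate 1 (adjusted p = 0.166) or without control replicate 2 (adjusted p = 0.151). Dlg1 encodes a polarity protein of many cell types as well. Nsf, the ATPase that binds Gria2, went from 12.7 and 27.3 TPM to 2.53 and 1.83 TPM (log2 change -2.64, adjusted p = 0.0116, limma). Pick1, which binds the tails of Gria2 and Gria3, went from 5.15 and 7.71 TPM to 0 and 0.349 TPM (log2 change -2.66, adjusted p = 0.00545, limma). Dlg3, for the synaptic scaffold SAP102, went from 5.01 and 4.83 TPM to 0.0580 and 0.513 TPM. Pick1 and Dlg3 were also lower after scaling (adjusted p = 0.0238 and 0.0455, limma), but both were tested through their control values alone, so they had to be lower.

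Adar, for the broadly expressed editing enzyme, and Adarb2, for a relative without known editing activity, fell. Their levels went from 1.71 and 2.97 TPM to 0.675 and a listed 0 TPM and from 1.58 and 2.38 TPM to 0.508 and 0.0736 TPM (adjusted p = 0.0327 and 0.0232, limma). Both were tested through their control values alone, so they had to be lower, and neither passed after scaling (adjusted p = 0.514 and 0.474). Adarb1 makes the enzyme that edits the capital codon of Gria2, and it was singled out after its values were seen. Adarb1 had 3.97 and 1.14 TPM in controls and 9.24 and 6.47 TPM with the fusion, with no overlap. Its log2 change of 1.42 ± 0.57 did not pass on TPM as deposited (SE, adjusted p = 0.0834, limma) and was 2.73 after scaling (adjusted p = 0.0322).

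Other glutamate receptors and the uptake system held genes that fell and none that rose. Their counts are to be read beside 51.3% of all tested genes lower. Of 9 NMDA and delta receptor genes 5 were tested and 3 fell. Grin3a, for a subunit that lowers the calcium flow of NMDA receptors, went from 16.0 and 17.6 TPM to 3.44 and 4.71 TPM, Grid1 from 8.47 and 10.4 TPM to 3.85 and 1.26 TPM, and Grin1, the subunit that every NMDA receptor needs, from 1.84 and 2.47 TPM to 0.0429 and 0.0703 TPM. Grin1 was the 1 of these that was lower after scaling too (log2 change -0.94, adjusted p = 0.0268, limma), though Grin1, like the metabotropic receptor gene Grm3, was tested through its control values alone and had to be lower. Of 8 metabotropic receptors 2 were tested and both fell, Grm5 from 12.9 and 9.03 TPM to 4.12 and 2.78 TPM and Grm3 from 1.35 and 1.28 TPM to 0.00635 and 0.0200 TPM. Of 10 transport and metabolism genes 6 were tested, with 5 lower. Glul, for glutamine synthetase, went from 79.0 and 95.0 TPM to 3.68 and 9.45 TPM (log2 change -3.65, adjusted p = 0.00491, limma). The uptake carriers Slc1a1 and Slc1a3 went from 72.4 and 107 TPM to 6.89 and 13.2 TPM and from 109 and 141 TPM to 10.7 and 31.6 TPM, and Slc1a2 from 7.42 and 8.64 TPM to 2.56 and 2.01 TPM. Over all 61 pathway genes 39 were tested, with 24 lower and 1 higher, a median log2 change of -1.46 beside -1.41 for all genes. The lower calls came to 61.5% and the higher calls to 2.56%, beside 51.3% and 4.95% of all tested genes. After scaling these counts were 10 lower and 5 higher, beside 18.6% and 14.3%. Of the 39, 14 were tested through their control values alone, and they held 13 of the 24 lower calls and 8 of the 10 after scaling. Among the other 25 genes 11 were lower, beside 43.4%, and 2 after scaling, beside 11.2%.

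**Figure D5:**
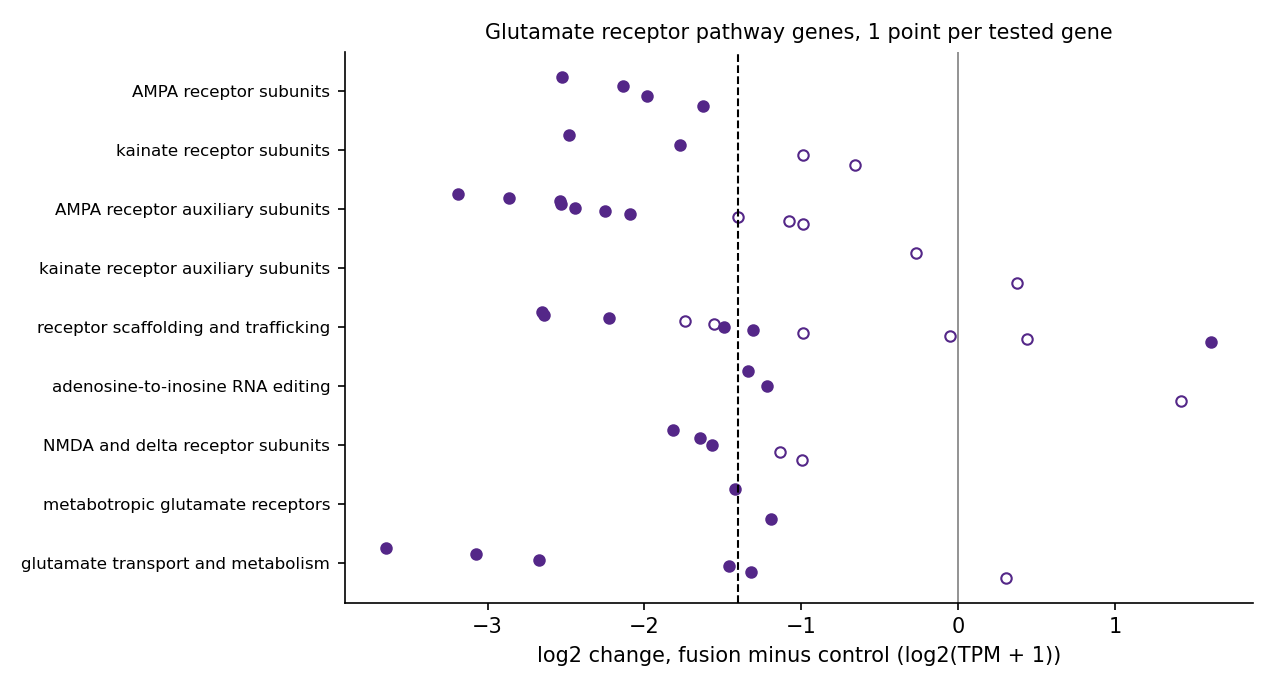
Log2 change, fusion minus control, of each tested gene of the receptor families and pathway lists, with filled points at an adjusted p under 0.05 and a dashed line at the median of all genes, -1.41. The 4 AMPA subunits and 7 of 10 AMPA auxiliary genes are filled and left of the line, beside 51.3% of all tested genes called lower. Dlg1 at 1.61 is the only filled point to the right of 0.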

How the data were processed

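RNA was measured in 2 control and 2 fusion libraries of sorted tdTomato-positive cells, by full-length amplification with a single-cell kit and paired-end sequencing, per the labels' protocols. The authors deposited 1 table of TPM with equal library totals. The submitters' processing notes name Salmon 1.8.0 and Trimmomatic 0.39, with GRCm38 and mm10 as builds. Neither the annotation release nor the step from transcripts to genes is stated in the sources used here. TPM keeps no depth. The depth of each library is therefore unknown, counting errors cannot be stated, and a 0 means only that the gene is listed at 0. Group and replicate number in the column names gave the sample of each column.

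Values of log2(TPM + 1) were fitted with limma 3.58.1 (R 4.3.3) using eBayes with a trend, for the 12871 genes that reached 1 TPM in 2 or more libraries. Tests were 2-sided, p-values were adjusted over these genes by Benjamini-Hochberg, and 0.05 was the threshold. The same script was tested on simulated data. Coordinates and sequences came from GENCODE M21 (GRCm38), whose identifiers and versions matched those of the 9 subunits in the table. Gene length and GC content were matched for 12862 tested genes. Median ratio scaling used the 10965 tested genes above 0 in every library.

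The subunits and gene lists were chosen with earlier results of these data known. Named were the 9 subunits, from each pathway list up to 4 genes past the threshold in order of mean TPM (the 2 highest where none passed), and from cell type lists genes among the 3 of highest mean. Adarb1, Mog, Rbfox3, P2ry12, Cdh5, Stmn2, Gad1, Nefl, Syt1, Gad2 and C1qa and the genes of the closing section were chosen after their values were seen. Alternatives were other pseudocounts, filters, scalings and limma settings, a GC and length correction, a replicate block and each library left out.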

Additional observations from a re-analysis of the deposited data

How the results depend on the processing

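The count of 6 subunits lower became 3 (Gria1, Gria2 and Gria3) with no filter on low values, beside 4586 of 24923 genes. It became 1 after median ratio scaling, beside 2396 of 12871 genes, and 0 with quantile normalization, beside 1955 of 12871. It was the same 3 with TPM renormalized without mitochondrially encoded genes, beside 5060 of 12854 genes. With the correction for GC content and length it was 2 (Gria2 and Gria3), beside 1952 of 12862 genes. With a library left out it ranged from 0 to 6, with 0 for either control library. With quantile normalization 1 subunit was lower at an unadjusted p under 0.05 (limma). No setting called a subunit higher. The pathway counts that follow are to be read beside the same counts of all genes lower. Those were 4444 of 7688 genes with a mean of at least 5 TPM and 6978 of 12871 with the replicate block. Genes higher numbered 1878 of 12862 with the GC and length correction and 642 of 12871 with the replicate block. The count of 24 pathway genes lower became 14 with no filter, 11 with a mean of at least 5 TPM (18 genes tested), 10 after scaling, 6 with quantile normalization and 2 with the GC and length correction, and ranged from 5 to 26 with a library left out. The 1 pathway gene higher became 5 after scaling, 6 with quantile normalization and 4 with the GC and length correction, and ranged from 0 to 1 with a library left out. With the replicate number as a block, 6 subunits and 26 pathway genes were lower and 2 pathway genes, Dlg1 and Adarb1, were higher. Deviations of same-numbered libraries had a correlation of -0.04 across genes. The labels do not say what the replicate numbers stand for, and this value cannot show whether same-numbered libraries share a preparation. Over all genes tested, lower and higher calls numbered 6606 and 637 on TPM as deposited, 2396 and 1846 after scaling (56.5% lower against 91.2%) and 1955 and 1948 with quantile normalization.

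Estimates that turned positive, by scaling, quantile normalization and the GC and length correction in this order, were Grik3 (0.21, 0.36 and 0.12), Grik5 (0.42, 0.71 and 0.48) and Neto2 (1.35, 1.38 and 0.70). Neto2 was also positive without mitochondrially encoded genes (0.26) and ranged from -0.67 to 0.14 with a library left out, the highest without fusion replicate 1. Grm5 turned to 0.0934 after scaling and 0.11 with quantile normalization, which also turned Adarb2 to 0.18, Grm3 to 0.0262 and Slc1a2 to 0.0142, and Grm3 was at 0.59 with the GC and length correction. The estimates of Gria1, Gria2, Gria3, Gria4, Grik1 and Grik2 stayed negative in each setting in which they were tested. The difference in Gria2 share ranged from 3.35 to 11.2 percentage points with a library left out. The difference in the ratio of AMPA to kainate TPM ranged from -1.88 to 4.90. With a library left out, the difference in Grik2 share ranged from -4.46 to 1.94 percentage points and that in Grik4 share from -0.888 to 1.45, each changing sign. The cause of these changes was not tested.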

Other observations

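Of the neuronal pentraxins, which gather AMPA receptors at synapses, neither tested gene passed in either direction. Nptx2 had 1.45 and 1.33 TPM in controls and 2.80 and 1.76 TPM with the fusion, with a log2 change of 0.44 ± 0.35 (SE, adjusted p = 0.325, limma). Nptxr had 1.56 and 2.35 TPM and then 2.90 and 1.04 TPM (log2 change -0.05, adjusted p = 0.927, limma), and Nptx1 reached at most 0.808 TPM in a library, too low to be tested. The vesicular glutamate transporters Slc17a6, Slc17a7 and Slc17a8, which mark glutamatergic neurons, reached at most 0.476 TPM in a library.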
